A study of Caenorhabditis elegans with 18 samples.

Results

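The *pud* genes of *Caenorhabditis elegans* were taken by name from the mRNA table, which gave *pud-1.1*, *pud-1.2*, *pud-2.1*, *pud-2.2*, *pud-3* and *pud-4*, 6 of the 29970 genes listed. They were chosen by the mRNA values of the same libraries, because *pud-2.1* had a far lower value in *tcer-1(tm1452)* animals than in *tcer-1(glm27)* animals, so their mRNA levels are described here without tests. The libraries came from *tcer-1(tm1452)* animals (strain CF2166), *tcer-1(glm27)* animals (strain AGP278) and wildtype animals (N2), 3 libraries each and 9 in all. In *tcer-1(glm27)* genome editing removed the gene, and *tcer-1(tm1452)* is an older, independently isolated allele whose cultures, per the study, develop less evenly. All animals were whole gravid hermaphrodite adults, grown for 72 h at 20 °C on *E. coli* OP50 from synchronized larvae.

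TCER-1 is a transcription elongation and splicing factor that acts with DAF-16, the FOXO transcription factor held in check by insulin signalling, in the long life of animals that lack a germline. PUD stands for protein upregulated in *daf-2* mutants, *daf-2* being the insulin receptor gene, and PUD-1 and PUD-2 proteins bind each other as a heterodimer. PUD-3 and PUD-4 are their relatives.

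The 6 genes lie together on chromosome V of the WBcel235 genome, as neighbouring pairs that are transcribed away from each other. *pud-1.2* (WBGene00021236) runs from 2322038 to 2322566 on the reverse strand, and *pud-2.2* (WBGene00017500) from 2323014 to 2323524 on the forward strand, so that 447 bases separate them. *pud-2.1* (WBGene00017490), from 2329444 to 2329954 on the reverse strand, and *pud-1.1* (WBGene00017499), from 2330429 to 2330930 on the forward strand, form another such pair, with 474 bases between them. *pud-3* (WBGene00017501), with 1 exon from 2324634 to 2325152 on the reverse strand, and *pud-4* (WBGene00017498), from 2326678 to 2327282 on the forward strand, lie between these pairs. They are also transcribed away from each other, with 1525 bases between them.

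The neighbouring pairs made of a *pud-1* and a *pud-2* gene sit in an inverted repeat. Its left arm covers V 2320301 to 2323834 and its right arm V 2329134 to 2332667, with 5299 bases between them. Of the 3534 bases of each arm 3532 were identical. The arms differ by T114C and C3532G (left-arm base first, position from the start of the left arm, then the base of the right arm read on the same strand of the repeat). T114C falls inside *Y19D10B.6* in the left arm and inside *irld-32* in the right arm, and C3532G falls between genes. Neither difference touches a *pud* gene. Both arms thus hold a *pud-1* gene, a *pud-2* gene and the sequence between them, while *pud-3* and *pud-4* lie outside the arms.

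**Figure D1:**
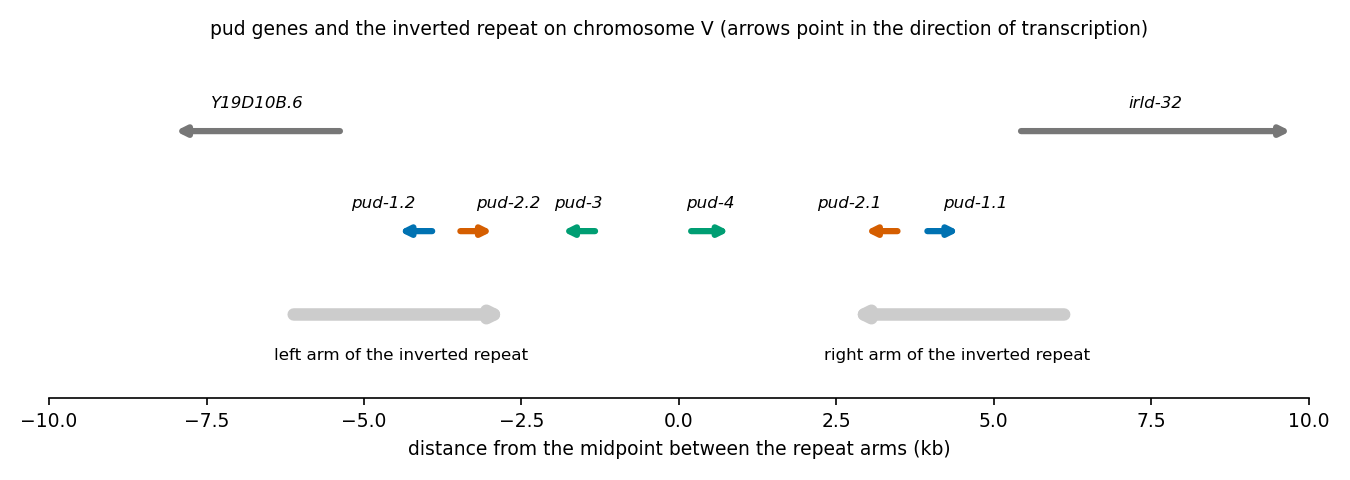
Map of the 6 *pud* genes on chromosome V, with distance from the midpoint between the repeat arms in kb on the x axis and arrows in the direction of transcription. The grey arrows at the bottom are the repeat arms, each of 3534 bases, and each holds 1 *pud-1* and 1 *pud-2* gene, with *pud-3* and *pud-4* between the arms and *Y19D10B.6* and *irld-32* reaching into them.

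The copies of *pud-1*, and those of *pud-2*, each summed below as a pair of copies, could not be told apart by their sequence in the genome. The exons of *pud-2.1* and *pud-2.2* are the same 465 bases. All 456 exonic bases of *pud-1.1* are contained in *pud-1.2*, whose model has 27 more bases before its start codon, and the genome holds the same bases next to *pud-1.1*, outside its model. Every exonic stretch of 150 bases, the read length, in the *pud-1* and *pud-2* models was found elsewhere in the genome. Of the 334 such stretches of *pud-1.2*, 307 were in another *pud* model. Those that reach its 27 extra bases were in no other *pud* model. For *pud-3* and *pud-4* none of the 370 and 415 stretches of 150 bases was found elsewhere, nor any stretch of 50 bases. Between different *pud* genes the exons shared 69.1% of aligned bases (*pud-2* with *pud-3*) to 74.4% (*pud-2* with *pud-4*). The first 60 coding bases, with the start codon in capitals, show the kinds of sequence that reads can separate, 1 for both *pud-1* genes, 1 for both *pud-2* genes and 1 each for *pud-3* and *pud-4*.
pud-1.1 (chrV:2330429-2330488, + strand) and pud-1.2 (chrV:2322480-2322539, - strand): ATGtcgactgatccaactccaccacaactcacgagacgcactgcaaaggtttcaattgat
pud-2.1 (chrV:2329895-2329954, - strand) and pud-2.2 (chrV:2323014-2323073, + strand): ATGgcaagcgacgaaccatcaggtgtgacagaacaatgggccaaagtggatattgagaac
pud-3 (chrV:2325093-2325152, - strand): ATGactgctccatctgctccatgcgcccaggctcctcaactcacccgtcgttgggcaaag
pud-4 (chrV:2326678-2326737, + strand): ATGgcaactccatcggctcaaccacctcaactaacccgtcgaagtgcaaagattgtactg

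Because DAF-16 acts through short DNA elements, the 300 bases before each annotated start were searched on both strands for GTAAACA, the DAF-16 binding element, and CTTATCA, the DAF-16-associated element. GTAAACA was in none of the 6 windows, against 5.00% of the windows of 19984 genes. CTTATCA was found before *pud-1.1*, *pud-1.2* and *pud-3*, against 9.25% of all windows. It lay 61 bases before the start of *pud-1.2* and 88 bases before that of *pud-1.1*, whose model starts 27 bases further on, so this is the same element in both arms. In *pud-3* it lay 299 bases before the start, at the edge of the window. The windows of *pud-2.1* and *pud-2.2*, identical over 300 bases, and that of *pud-4* held no match. The element before each *pud-1* gene also lies between that gene and its *pud-2* neighbour, which are 447 or 474 bases apart. It is beyond the 300 bases searched from the *pud-2* side. In every *pud* model but that of *pud-1.2* the annotated start is the start codon. The distances are therefore not measured from mapped transcription starts. A match is a run of letters only, and binding was not measured. The windows of *pud-1.2* and *pud-3* are shown with the match in capitals, since they place it close to and far from the start.
pud-1.2 (chrV:2322567-2322866, - strand): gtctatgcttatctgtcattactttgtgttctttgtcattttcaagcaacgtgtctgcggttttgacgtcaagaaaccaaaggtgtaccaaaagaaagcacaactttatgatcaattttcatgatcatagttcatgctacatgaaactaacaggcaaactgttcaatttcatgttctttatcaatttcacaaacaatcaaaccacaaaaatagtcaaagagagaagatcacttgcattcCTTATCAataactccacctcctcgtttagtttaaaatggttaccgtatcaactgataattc
pud-3 (chrV:2325153-2325452, - strand): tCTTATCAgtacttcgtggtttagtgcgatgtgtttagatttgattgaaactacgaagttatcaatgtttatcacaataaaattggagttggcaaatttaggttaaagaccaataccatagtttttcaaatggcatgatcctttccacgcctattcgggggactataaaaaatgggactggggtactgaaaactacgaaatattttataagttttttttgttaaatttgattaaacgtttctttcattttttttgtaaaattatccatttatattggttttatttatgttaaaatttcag

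The values are normalized counts, the estimated number of reads per gene divided by a size factor of the library, and 1 read was worth 0.836 to 1.318 normalized counts. The 9 libraries held 17998459 to 27818071 estimated reads. All 6 *pud* genes were among the 17037 genes with a mean of at least 2, the level needed for a test. Each owed most of its mean to *tcer-1(glm27)*, and *pud-1.1*, *pud-2.1*, *pud-3* and *pud-4* did so most strongly. On the log2 scale, r across genes was 0.986 to 0.989 between replicates, and none stood apart. *tcer-1* itself had 958.6, 862.3 and 1026 normalized counts in *tcer-1(tm1452)*, then 528.5, 496.2 and 470.0 in *tcer-1(glm27)*, against 5877, 6034 and 6346 in wildtype. On the log2 scale it fell by 2.68 ± 0.07 (SE) in *tcer-1(tm1452)* animals (limma adjusted p = 4.187e-13) and by 3.61 ± 0.07 for *tcer-1(glm27)* (limma adjusted p = 8.544e-14). The reads left in the deletion alleles were not located within the gene here.

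*pud-2.1*, the gene behind the choice, was listed at 0 normalized counts in all 3 *tcer-1(tm1452)* libraries. It had 340.5, 418.0 and 258.6 in *tcer-1(glm27)*. In wildtype it was listed at 0 in replicates 1 and 3 and had 133.0 in replicate 2. It was thus at 0 in 5 of 9 libraries, wildtype among them, and no fold is given against a group at 0.

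Its copy *pud-2.2* was well above 0 in every library. It had 309.2, 280.9 and 278.7 normalized counts in *tcer-1(tm1452)* animals, 1303, 975.1 and 1294 in *tcer-1(glm27)*, and 229.1, 133.0 and 204.8 in wildtype. The *tcer-1(tm1452)* libraries all lay above the wildtype libraries here, a layout seen in 36.6% of all tested genes. In wildtype replicate 2 both copies carried the same value, 133.0.

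*pud-1.1* showed the same layout as *pud-2.1*. It was listed at 0 in all 3 *tcer-1(tm1452)* libraries and in wildtype replicates 1 and 3, with 14.7 normalized counts in wildtype replicate 2. In *tcer-1(glm27)* it had 67.3, 35.2 and 30.5. *pud-1.2* carried nearly all of its pair, with 289.4, 293.7 and 261.6 normalized counts in *tcer-1(tm1452)* animals, 1799, 1567 and 1701 in *tcer-1(glm27)*, and 252.0, 285.8 and 265.2 in wildtype.

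**Figure D2:**
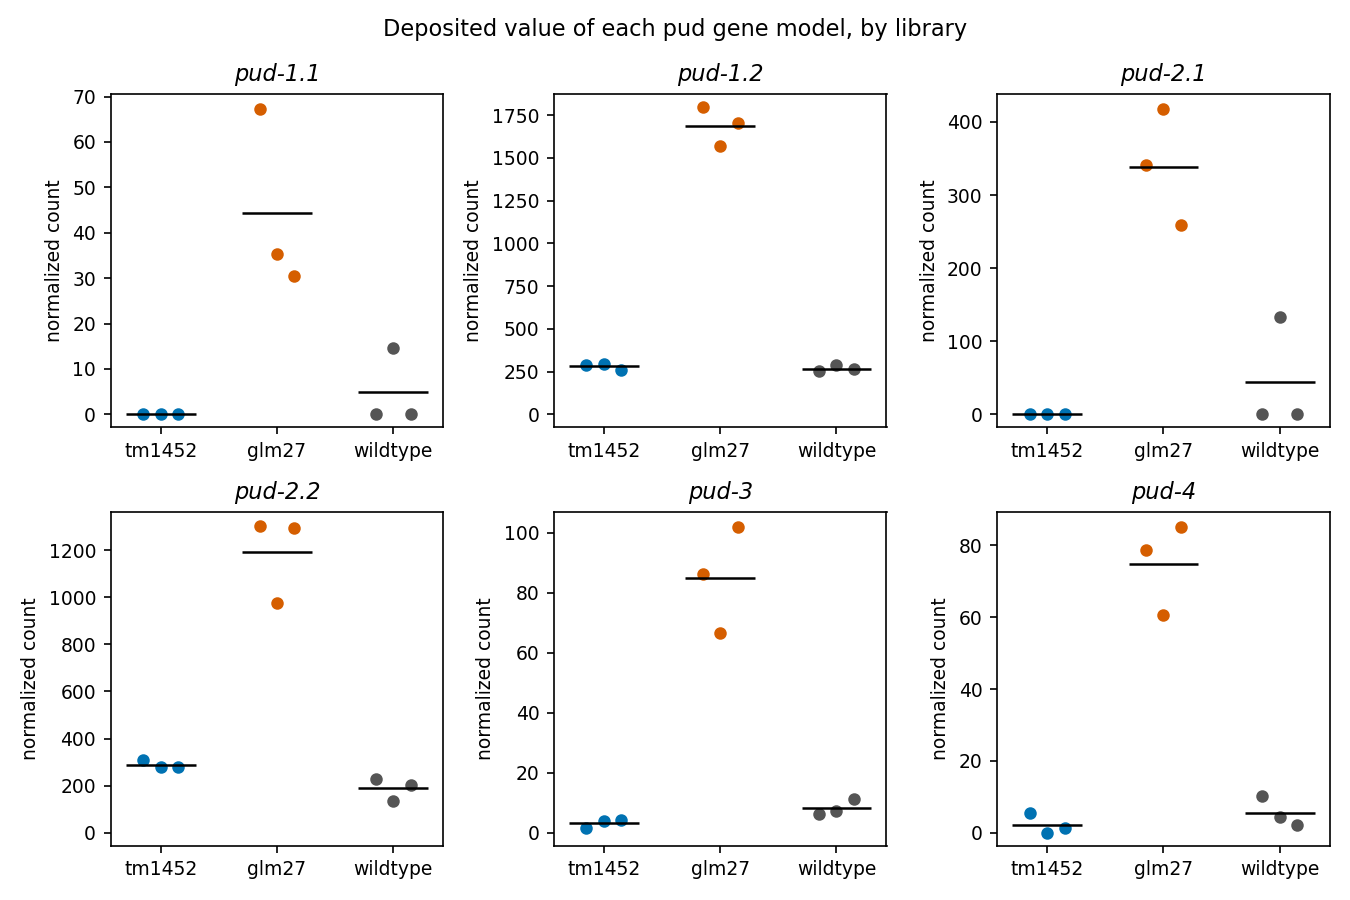
Normalized counts (y axis, linear, its range differing by panel) of the 6 *pud* gene models in *tcer-1(tm1452)*, *tcer-1(glm27)* and wildtype, with a point per library (n = 3 each) and a bar at the mean. *pud-1.1* and *pud-2.1* are at 0 in 5 of 9 libraries, while every *tcer-1(glm27)* point lies above all wildtype points of its gene.

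The share of a pair listed under 1 copy is a division of reads of the same sequence. An exception is reads that reach the 27 extra bases of the *pud-1.2* model, which no other *pud* model holds. Their part in the *pud-1* split was not tested. RSEM, the program that counted the reads, splits those that match several genes by an estimate. *pud-2.1* took 0% of the *pud-2* pair in the 3 *tcer-1(tm1452)* libraries, 20.7, 30.0 and 16.7% in *tcer-1(glm27)*, and 0, 50 and 0% in wildtype. *pud-1.1* took 0% of the *pud-1* pair in *tcer-1(tm1452)* animals, 3.61, 2.199 and 1.76% in *tcer-1(glm27)*, and 0, 4.88 and 0% in wildtype. The split of the *pud-2* pair went over the whole range from 0 to 50% among wildtype replicates. The 0 in *tcer-1(tm1452)* is therefore no measurement of *pud-2.1* alone, and the sum of each pair is the quantity that the reads measured.

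**Figure D3:**
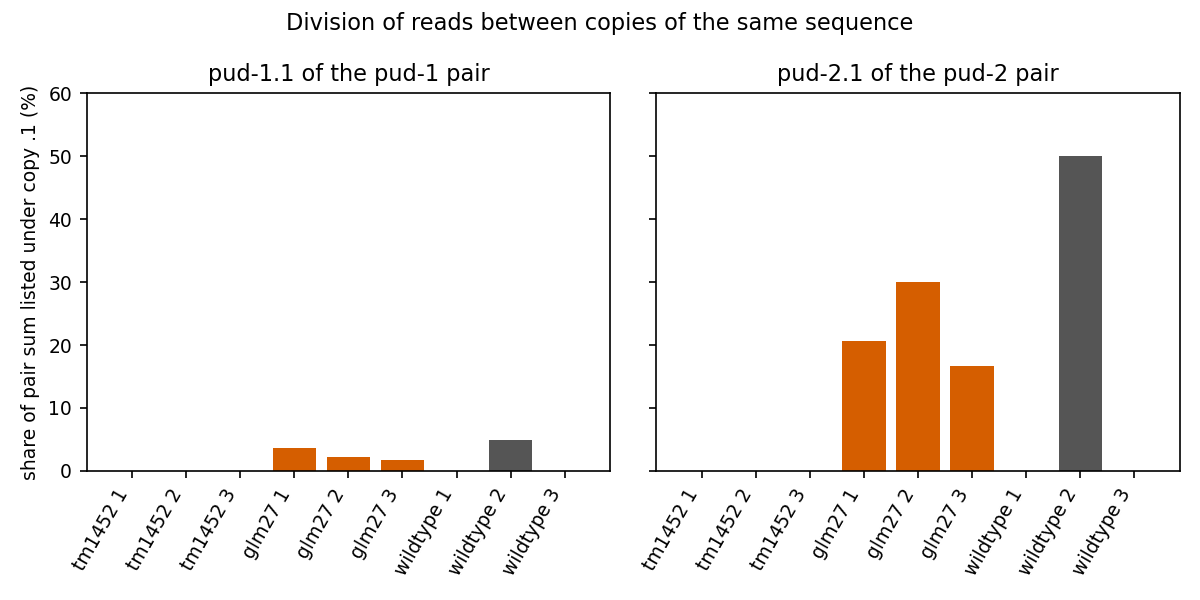
Share of the pair sum listed under *pud-1.1* (left) and *pud-2.1* (right), in percent on the y axis, with a bar for each of the 9 libraries from *tcer-1(tm1452)*, *tcer-1(glm27)* and wildtype. Bars are missing where the copy was listed at 0, and the tallest, 50% for *pud-2.1*, belongs to wildtype replicate 2.

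Summed over the copies, *pud-2* mRNA was present in *tcer-1(tm1452)* at no less than its wildtype level. The *pud-2* sum was 309.2, 280.9 and 278.7 normalized counts in *tcer-1(tm1452)* animals, 1643, 1393 and 1553 in *tcer-1(glm27)*, and 229.1, 266.0 and 204.8 in wildtype. The lowest *tcer-1(tm1452)* library lay just above the highest wildtype library. The mean of 289.6 ± 17.0 (SD, n = 3) in *tcer-1(tm1452)* was 1.24 times the 233.3 ± 30.8 of wildtype, a log2 difference of 0.32 ± 0.12 (SE). The mean of 1530 ± 127 (SD, n = 3) in *tcer-1(glm27)* was 6.56 times that of wildtype, a log2 difference of 2.71 ± 0.13 (SE). A value lost in *tcer-1(tm1452)* was thus seen for the *pud-2.1* model and not for *pud-2* mRNA.

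The *pud-1* sum behaved alike. It was 289.4, 293.7 and 261.6 normalized counts in *tcer-1(tm1452)* animals, 1866, 1602 and 1731 in *tcer-1(glm27)*, and 252.0, 300.5 and 265.2 in wildtype. The *tcer-1(tm1452)* and wildtype libraries overlapped, with means of 281.6 ± 17.4 and 272.6 ± 25.1 (SD, n = 3 each), a ratio of 1.03. *tcer-1(glm27)*, at 1733 ± 132 (SD, n = 3), had 6.36 times the wildtype mean, a log2 difference of 2.67 ± 0.10 (SE).

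*pud-3*, whose reads match no other gene over 50 bases, was low outside *tcer-1(glm27)*. It had 1.64, 4.04 and 4.42 normalized counts in *tcer-1(tm1452)* animals, 86.3, 66.7 and 101.9 in *tcer-1(glm27)*, and 6.12, 7.33 and 11.4 in wildtype. The *tcer-1(tm1452)* libraries, at a few reads each, lay below the wildtype libraries, as in 35.3% of all tested genes, with a log2 difference of -1.12 ± 0.41 (SE) after adding 1. *tcer-1(glm27)* averaged 85.0 ± 17.6 and wildtype 8.29 ± 2.78 (SD, n = 3 each), a ratio of 10.3.

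*pud-4* followed *pud-3*. It had 5.57, 0 and 1.21 normalized counts in *tcer-1(tm1452)* animals, 78.6, 60.6 and 85.0 in *tcer-1(glm27)*, and 10.1, 4.33 and 2.203 in wildtype. The *tcer-1(tm1452)* and wildtype libraries overlapped, and at this depth no difference between them was detectable. *tcer-1(glm27)* averaged 74.7 ± 12.62 and wildtype 5.56 ± 4.11 (SD, n = 3 each), a log2 difference of 3.71 ± 0.54 (SE) after adding 1.

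**Figure D4:**
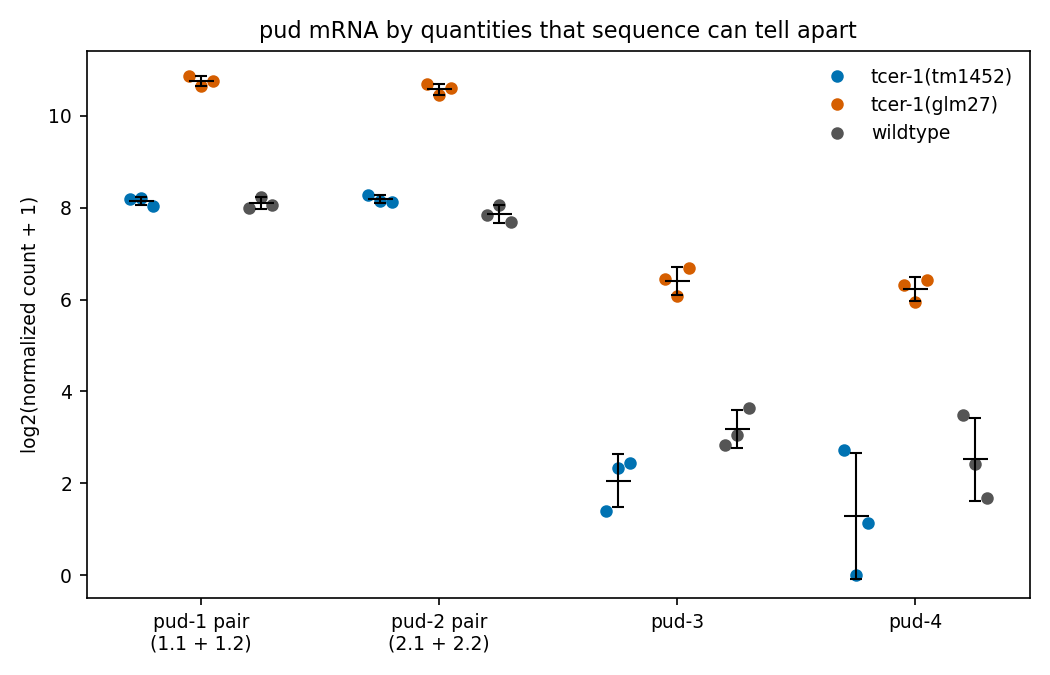
log2(normalized count + 1) of the *pud-1* and *pud-2* pair sums, *pud-3* and *pud-4* on the y axis, with a point per library, a bar at the mean and whiskers of 1 SD (n = 3), in the order *tcer-1(tm1452)*, *tcer-1(glm27)*, wildtype. *tcer-1(glm27)* stands above both other genotypes in all 4 quantities, while the pair sums of *tcer-1(tm1452)*, at means of 281.6 and 289.6 normalized counts, lie at or above those of wildtype.

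For each of the 6 *pud* genes all 3 *tcer-1(glm27)* libraries lay above all 3 wildtype libraries. Such a layout was seen in 36.3% of the 17037 genes tested, and with a mean at least 2-fold higher in 14.3%. Since the genes were chosen for a high value in *tcer-1(glm27)* relative to *tcer-1(tm1452)*, nothing is read from this count or from the ranks that follow, which only describe the size of the differences. The log2 difference of *tcer-1(glm27)* from wildtype was equalled or exceeded by 3.15% of the tested genes for the *pud-1* sum, 2.85% for the *pud-2* sum, 1.04% for *pud-3* and 0.44% for *pud-4*. The median over all tested genes was 0.13. Against *tcer-1(glm27)*, the *tcer-1(tm1452)* level differed by -2.62 ± 0.08 (SE) for the *pud-1* sum, -2.40 ± 0.08 for the *pud-2* sum, -4.35 ± 0.37 for *pud-3* and -4.94 ± 0.80 for *pud-4*, all log2 differences after adding 1, with all *tcer-1(tm1452)* libraries below all *tcer-1(glm27)* libraries in each, as in 23.7% of all tested genes.

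Per kb of exon the *pud-1* and *pud-2* sums were close to each other and far above *pud-3* and *pud-4*. The *pud-1* sum had 617.5 ± 38.2 normalized counts per kb in *tcer-1(tm1452)*, 3800 ± 290 in *tcer-1(glm27)* and 597.7 ± 54.9 in wildtype (SD, n = 3 each). The *pud-2* sum had 622.7 ± 36.6 normalized counts per kb in *tcer-1(tm1452)*, 3290 ± 273 in *tcer-1(glm27)* and 501.6 ± 66.3 in wildtype. The ranges of both sums overlapped within each genotype, though the *pud-2* sum was below the *pud-1* sum in every *tcer-1(glm27)* and wildtype library. The proteins of these genes form a dimer, and the *pud-2* sum was 0.956 to 1.07 times the *pud-1* sum in *tcer-1(tm1452)*, 0.870 to 0.897 times in *tcer-1(glm27)* and 0.772 to 0.909 times in wildtype, before division by length. *pud-3* had 6.49 ± 2.91 normalized counts per kb in *tcer-1(tm1452)*, 163.7 ± 34.0 in *tcer-1(glm27)* and 16.0 ± 5.36 in wildtype. *pud-4* had 4.01 ± 5.19 per kb in *tcer-1(tm1452)*, 132.5 ± 22.4 in *tcer-1(glm27)* and 9.86 ± 7.29 in wildtype. In every *tcer-1(glm27)* library *pud-3* was above *pud-4* per kb, at 166.3, 128.6 and 196.4 against 139.4, 107.5 and 150.7, though their ranges overlapped. In *tcer-1(tm1452)* and wildtype, at a few reads each, their order varied between libraries.

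The genes around the cluster were at or near 0 normalized counts, apart from *Y19D10B.6*. Of 12 other genes within 20 kb of a *pud* gene, many of them *irld* genes, named for an insulin and EGF receptor L domain, 3 passed the filter on low values. *Y19D10B.6* (WBGene00021235, V 2318490 to 2321101, reverse strand), which reaches into the left repeat arm and so has part of its sequence copied in the right arm, had 151.3, 189.9 and 175.1 normalized counts in *tcer-1(tm1452)* animals, 81.6, 59.2 and 68.5 in *tcer-1(glm27)*, and 33.6, 29.2 and 27.2 in wildtype, with no overlap between genotypes. It rose in both alleles, with a log2 fold change of 2.48 ± 0.17 (SE, limma adjusted p = 8.727e-09) for *tcer-1(tm1452)*, against 1.18 ± 0.17 (limma adjusted p = 2.395e-05) for *tcer-1(glm27)*. *tcer-1(tm1452)* exceeded *tcer-1(glm27)* by 1.297 ± 0.17 (limma adjusted p = 1.939e-05). Its order of genotypes was thus not that of the *pud* genes. *irld-53*, averaging 1.91 normalized counts in *tcer-1(glm27)* and 6.71 in wildtype, fell by 1.66 on the log2 scale (limma adjusted p = 0.02464), a call lost without *tcer-1(glm27)* replicate 1 (adjusted p = 0.115), wildtype replicate 2 (0.0648) or wildtype replicate 3 (0.0552). The third, *irld-30*, was not called.

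The *pud* genes are known for their rise when insulin signalling is reduced, so other genes of that pathway were read beside them. Class I targets are genes that DAF-16 activity raises, and 24 of 26 listed were tested. In *tcer-1(glm27)* against wildtype 7 of the 24 rose and 0 fell, where 14.5% of all tested genes rose and 2.07% fell, and the median log2 fold change was 0.77 against 0.13 over all genes. In *tcer-1(tm1452)* against wildtype 7 rose and 1 fell, where 20.2% of all genes rose and 7.51% fell, and the median was 0.10 against 0.02. Between the alleles 5 of the 24 were lower in *tcer-1(tm1452)* and 0 were higher, where 8.08% of all genes were lower and 11.4% higher, and the median was -0.13 against 0.06. Without *tcer-1(glm27)* replicate 3 the count between the alleles was 5 lower and 2 higher, the 2 being *hsp-16.11* (1.085) and *hsp-16.2* (1.039), and the count in *tcer-1(glm27)* against wildtype was 5.

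The 5 class I targets that were lower in *tcer-1(tm1452)* when set against *tcer-1(glm27)*, as the *pud* genes were, have roles in defence, metal binding and metabolism. The lysozyme gene *lys-7* averaged 1324 normalized counts in *tcer-1(tm1452)*, 6056 in *tcer-1(glm27)* and 2615 in wildtype, with a log2 fold change of -2.19 between the alleles (limma adjusted p = 9.481e-12) and a rise of 1.21 in *tcer-1(glm27)* (2.124e-09). The metallothionein gene *mtl-1* averaged 11.6 normalized counts in *tcer-1(tm1452)*, 42.5 in *tcer-1(glm27)* and 38.0 in wildtype, with -1.82 between the alleles (limma adjusted p = 4.889e-05) and a fall of 1.66 in *tcer-1(tm1452)* (4.642e-05). *dod-3*, named as lying downstream of *daf-16*, averaged 80.6 normalized counts in *tcer-1(tm1452)*, 231.8 in *tcer-1(glm27)* and 102.2 in wildtype, with -1.50 between the alleles (limma adjusted p = 9.224e-07) and a rise of 1.17 in *tcer-1(glm27)* (5.895e-06). The catalase gene *ctl-2* averaged 1123 normalized counts in *tcer-1(tm1452)*, 2670 in *tcer-1(glm27)* and 1319 in wildtype, with -1.25 between the alleles (limma adjusted p = 1.248e-09) and a rise of 1.02 in *tcer-1(glm27)* (6.719e-09). *nnt-1*, which encodes a nicotinamide nucleotide transhydrogenase, averaged 87.3 normalized counts in *tcer-1(tm1452)*, 187.9 in *tcer-1(glm27)* and 101.4 in wildtype, with -1.1 between the alleles (limma adjusted p = 1.558e-05). Without wildtype replicate 2 the rise of *ctl-2* was 0.97, under the 2-fold needed for a call.

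Other class I targets rose in both alleles or in *tcer-1(tm1452)*. The ferritin gene *ftn-1* averaged 59.1 normalized counts in *tcer-1(tm1452)*, 75.7 in *tcer-1(glm27)* and 12.31 in wildtype, with log2 fold changes from wildtype of 2.23 for *tcer-1(tm1452)* (limma adjusted p = 2.221e-06) and 2.59 for *tcer-1(glm27)* (8.224e-07). The superoxide dismutase gene *sod-3* averaged 210.1 normalized counts in *tcer-1(tm1452)*, 111.2 in *tcer-1(glm27)* and 52.9 in wildtype. Its log2 fold change was 1.98 for *tcer-1(tm1452)* (limma adjusted p = 1.823e-08) and 1.06 for *tcer-1(glm27)* (1.575e-05), where it was 0.99 without *tcer-1(glm27)* replicate 3 and 0.96 without wildtype replicate 1. Of the small heat shock genes, *hsp-16.2* rose by 1.73 in *tcer-1(tm1452)* (limma adjusted p = 1.033e-08). *hsp-16.1* rose by 4.23 in *tcer-1(tm1452)* (limma adjusted p = 0.0005702) and by 3.32 for *tcer-1(glm27)* (0.004256, and 0.0983 with no filter on low values). Without wildtype replicate 3, where it is listed at 0, these values were 2.74 for *tcer-1(tm1452)* and 1.83 for *tcer-1(glm27)*. *hsp-16.11* rose by 1.99 in *tcer-1(tm1452)* (limma adjusted p = 2.202e-09) and by 1.099 for *tcer-1(glm27)* (1.856e-06), or 0.90 without *tcer-1(glm27)* replicate 3. All 438 exonic bases of *hsp-16.1* are also found in *hsp-16.11*, so the values of these 2 genes are uncertain in the same way as those of the *pud* copies.

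**Figure D5:**
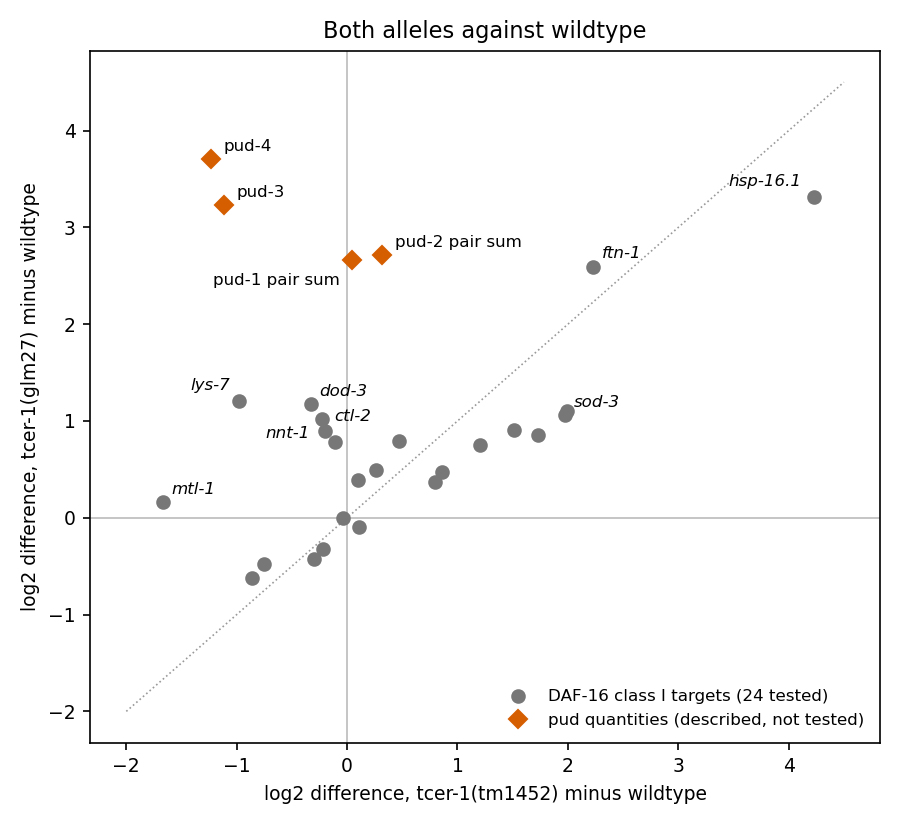
Log2 difference from wildtype in *tcer-1(tm1452)* (x axis) and *tcer-1(glm27)* (y axis) of the 24 tested class I targets (grey circles) and the *pud* quantities (orange diamonds), with a dotted line where the alleles would be equal. The *pud* quantities lie at 2.67 or more on the y axis and from -1.24 to 0.32 on the x axis. Both axes share the wildtype libraries.

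Of the 6 tested class II targets, genes that DAF-16 activity lowers, 1 was called in each comparison, where 27.7% of all tested genes were called in *tcer-1(tm1452)* against wildtype, 16.5% in *tcer-1(glm27)* against wildtype and 19.5% between the alleles. *dod-17* rose in *tcer-1(tm1452)* by 2.15 on the log2 scale (limma adjusted p = 3.062e-08), averaging 218.4 normalized counts in *tcer-1(tm1452)*, 88.2 in *tcer-1(glm27)* and 48.9 in wildtype, and *tcer-1(tm1452)* exceeded *tcer-1(glm27)* by 1.29 (limma adjusted p = 1.631e-05). *dod-24* fell by 1.68 in *tcer-1(glm27)* (limma adjusted p = 1.068e-08), averaging 145.8 normalized counts in *tcer-1(glm27)* and 470.0 in wildtype. Of 14 components of insulin signalling limma called 0 in each of the 3 comparisons. An unadjusted p under 0.05 was found for 13 of the 14 in *tcer-1(tm1452)* against wildtype, where 71.9% of all tested genes had one, for 13 in *tcer-1(glm27)* against wildtype (64.3% of all genes) and for 6 between the alleles (53.9% of all genes). Their median log2 fold changes were -0.30, -0.45 and 0.13. Under the 2-fold needed for a call, *daf-2* was lower by 0.61 in *tcer-1(tm1452)* (limma adjusted p = 8.573e-08) and by 0.71 in *tcer-1(glm27)* (4.124e-08). The values of *ist-1*, *akt-2*, *sgk-1* and *ftt-2* were above 0 in both alleles against wildtype, and those of the others below. The largest rise was that of *akt-2*, 0.93 in *tcer-1(tm1452)* (limma adjusted p = 1.68e-07).

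In whole animals a change in mRNA per cell and a change in the share of a tissue cannot be told apart, so marker lists of 10 genes each were read beside the *pud* levels. None of the 50 markers averaged 0 in any genotype. The calls in each list stand beside 27.7% of all tested genes in *tcer-1(tm1452)* against wildtype, 16.5% in *tcer-1(glm27)* against wildtype and 19.5% between the alleles. The summed level of the intestine markers was 80390 to 87557 normalized counts in *tcer-1(tm1452)*, 98924 to 102459 in *tcer-1(glm27)* and 65588 to 72748 in wildtype. Of the 10, limma called 1 higher in *tcer-1(tm1452)* against wildtype, 0 in *tcer-1(glm27)* against wildtype, where all 10 had an unadjusted p under 0.05, and 1 lower in *tcer-1(tm1452)* against *tcer-1(glm27)*.

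Moulting markers summed to 3459 to 3998 normalized counts in *tcer-1(tm1452)*, 5633 to 5988 in *tcer-1(glm27)* and 3451 to 4720 in wildtype. The intestine and moulting sums were thus highest in *tcer-1(glm27)*, as the *pud* sums were, by a much smaller factor. Most of the intestine sum came from *asp-1* and *cpr-6*. They averaged 57174 and 25444 normalized counts in *tcer-1(glm27)*, and 49046 and 14964 in *tcer-1(tm1452)*. *elt-7*, *ges-1*, *nhx-2* and *mtl-2* also had their highest mean in *tcer-1(glm27)*. The means of *ifb-2*, *act-5*, *elt-2* and *pept-1* were highest in *tcer-1(tm1452)*. The order of the intestine sums thus leaned on *asp-1* and *cpr-6* and was not that of every gene. Single moulting genes did not all follow their sum, since the 1 called in *tcer-1(glm27)* against wildtype, *mlt-9*, was lower (-1.02 on the log2 scale). In *tcer-1(tm1452)* 1 moulting gene was called higher and 3 lower against wildtype, and 1 higher and 4 lower against *tcer-1(glm27)*.

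Hypodermis markers summed to 84445 to 88847 normalized counts in *tcer-1(tm1452)*, 50223 to 60085 in *tcer-1(glm27)* and 27944 to 28091 in wildtype, a sum carried by the cuticle collagen gene *col-19*. Without *col-19* the other 9 summed to 3287 to 3640 in *tcer-1(tm1452)*, 2942 to 3040 in *tcer-1(glm27)* and 3435 to 3760 in wildtype, so the order of the sums rests on that gene. Singly, *rol-6*, *bli-1*, *lon-3* and *elt-3* also had their highest mean in *tcer-1(tm1452)* and their lowest in wildtype. The means of *elt-1*, *dpy-7* and *che-14* were highest in *tcer-1(glm27)*, and those of *lin-26* and *nhr-23* in wildtype. Of the 10, 4 were called higher in each allele against wildtype, and 3 higher and 1 lower in *tcer-1(tm1452)* against *tcer-1(glm27)*. In *tcer-1(tm1452)* against wildtype 5 others had values of -0.28 to -0.67 on the log2 scale, under the 2-fold needed for a call.

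Sperm markers summed to 2731 to 3180 normalized counts in *tcer-1(tm1452)*, 906.4 to 1048 in *tcer-1(glm27)* and 653.8 to 778.9 in wildtype. The highest sum, in *tcer-1(tm1452)* replicate 1, held 573.9 from *msd-1*, which was listed at 0 in replicates 2 and 3. All calls were higher, 8 in *tcer-1(tm1452)* against wildtype, 6 in *tcer-1(glm27)* against wildtype and 7 in *tcer-1(tm1452)* against *tcer-1(glm27)*. Under the 2-fold needed for a call, *spe-44* was lower than wildtype by 0.60 on the log2 scale in *tcer-1(tm1452)* and by 0.86 in *tcer-1(glm27)*. The values of *spe-9* (-0.86) and *spe-41* (-0.07) were also below 0 in *tcer-1(glm27)* against wildtype. The 6 vitellogenin genes, which encode yolk, summed to 899765 to 911126 in *tcer-1(tm1452)*, 1472511 to 1614438 in *tcer-1(glm27)* and 1300278 to 1590294 in wildtype. The 4 oocyte markers summed to 116140 to 129294 in *tcer-1(tm1452)*, 119881 to 132354 in *tcer-1(glm27)* and 181205 to 196883 in wildtype. Each oocyte marker was lower than wildtype in both alleles by less than the 2-fold needed for a call, with log2 fold changes of -0.57 to -0.76 (limma adjusted p of 3.497e-06 or less). Of these 10 yolk and oocyte genes 1 was called lower in *tcer-1(tm1452)* against wildtype, 0 in *tcer-1(glm27)* against wildtype, where 6 had an unadjusted p under 0.05, and 2 lower in *tcer-1(tm1452)* against *tcer-1(glm27)*. The splits of the hypodermis and yolk lists were chosen after their values were seen. The part of tissue shares or stage in the *pud* differences was not tested.

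The 8 genes most like *pud-2.1* were ranked by Pearson's r over the 9 libraries on the log2 scale, among the 14409 genes with a mean of at least 10, as a description. They were *pud-1.1* (r = 0.992), *F09E5.14* (0.981), *fbxb-72* (0.974), *F26D10.13* (0.950), *C09G12.5* (0.945), the lectin genes *clec-232* (0.944) and *clec-161* (0.943), and the collagen gene *col-43* (0.942). *pud-1.1*, *F26D10.13*, *C09G12.5*, *clec-232* and *clec-161* averaged 44.3, 44.8, 33.6, 29.0 and 44.3 normalized counts in *tcer-1(glm27)*. In *tcer-1(tm1452)* and wildtype they averaged at most 6.06. They reached the mean of 10 only through *tcer-1(glm27)*, so nothing is read from their r. The order of the 8 also rests on the division of reads between copies. With the *pud-2* pair sum in its place, a choice made after the values were seen, the first were *ugt-29* (0.995), *ZK550.6* (0.994), *pud-1.2* (0.994), *cest-5.2* (0.993) and *T22B7.7* (0.993). *ugt-29* averaged 388.8 normalized counts in *tcer-1(tm1452)*, 690.3 in *tcer-1(glm27)* and 359.4 in wildtype. *T22B7.7* averaged 1256 normalized counts in *tcer-1(tm1452)*, 8592 in *tcer-1(glm27)* and 1137 in wildtype. A highest mean in *tcer-1(glm27)* is built into a likeness to the *pud-2* sum, so nothing is read from it.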

How the data were processed

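From directional, paired-end libraries of rRNA-depleted RNA, the authors trimmed reads with fastp, aligned them with STAR, estimated counts per gene with RSEM on WormBase WS279 (the WBcel235 genome) and divided them by DESeq2 size factors, and they deposited these normalized counts, a signal not scaled to gene length. RSEM divides reads that match several genes, which decides the values of identical copies. Whole reads could not be recovered from the values, so no count model was run.

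Values were compared as log2(value + 1) with limma 3.58.1 (R 4.3.3) with a trended eBayes and all 9 libraries fitted jointly, over the 17037 genes with a mean of at least 2, with Benjamini-Hochberg adjustment. Genes were called at an adjusted p under 0.05 with at least a 2-fold change. Pair sums were added before log2, and no p is given for a *pud* gene. Exon and repeat sequences were compared in the WBcel235 genome, chromosome V, with Biopython 1.88, and windows of 300 bases were searched for motifs. Names follow the deposited table, and the Ensembl annotation gives WBGene00017490 another *pud-2* name and *irld-53* another *irld* name.

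Named genes were the *pud* genes, *tcer-1*, called genes within 20 kb, up to 6 called genes per pathway list and comparison, and the 8 genes most like *pud-2.1* among those with a mean of at least 10. The *pud* genes and all lists were chosen with earlier results of these data known. Replicates are separate samples per the labels, and p-values measure the spread between them. Alternatives were other pseudocounts, filters, scalings and thresholds, eBayes without a trend, fits of the compared groups alone, a replicate block and each library left out. Small RNAs of the *pud* genes were not analysed here, and the test planned for them could not be run.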

Additional observations from a re-analysis of the deposited data

Results flagged for a closer look

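The changes of 7 named genes against wildtype differed between the alleles in the direct limma comparison of *tcer-1(tm1452)* with *tcer-1(glm27)*. The log2 difference was 1.3 for *Y19D10B.6* and 1.29 for the class II target *dod-17*, both higher in *tcer-1(tm1452)*. It was -2.19 for *lys-7*, -1.82 for *mtl-1*, -1.50 for *dod-3*, -1.25 for *ctl-2* and -1.1 for *nnt-1*, all class I targets that were lower in *tcer-1(tm1452)*, as the *pud* genes were.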

How the results depend on the processing

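No result changed direction where it had been called, and the log2 difference of *tcer-1(glm27)* from wildtype stayed between 2.61 and 2.81 for both pair sums and between 3.06 and 4.18 for *pud-3* and *pud-4* when each library was left out. A pseudocount of 5 brought the difference of *tcer-1(glm27)* from wildtype to 2.76 for *pud-3* and 2.97 for *pud-4*, and that of *tcer-1(tm1452)* from *tcer-1(glm27)* to -3.42 and -3.52, by construction at low values. With all 4 *pud-1* and *pud-2* models as 1 sum, added after the values were seen, the pair difference of *tcer-1(tm1452)* from *tcer-1(glm27)* was -2.51.

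Among genes within 20 kb, 2 were called in *tcer-1(glm27)* against wildtype, and 1 with a pseudocount of 5, with a mean of at least 10 or with an adjusted p under 0.01 (1 without *tcer-1(glm27)* replicate 1 or wildtype replicate 2 or 3, and 2 otherwise). In *tcer-1(tm1452)* against wildtype 1 was called, and 2 with no filter or with the compared groups alone (1 to 2 with a library left out, 2 without *tcer-1(glm27)* replicate 1). Class I calls with a library left out were 8 to 9 in *tcer-1(tm1452)* against wildtype (8 with all), 5 to 8 in *tcer-1(glm27)* against wildtype (7 with all) and 5 to 7 between the alleles (5 with all). Class II calls were 1 to 2 with a library left out, reaching 2 without *tcer-1(tm1452)* replicate 2, wildtype replicate 2 or wildtype replicate 3 in *tcer-1(tm1452)* against wildtype, and without *tcer-1(glm27)* replicate 3 between the alleles. Without the filter *hsp-16.1* lost its call in *tcer-1(glm27)* (adjusted p = 0.0983) and so did *irld-53* (0.0908). The cause was not tested.

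With the replicate number as a block, 2 genes within 20 kb were called in *tcer-1(tm1452)* against wildtype in place of 1, *irld-53* being added (adjusted p = 0.0401), and it changed no other call among these results. Deviations of same-numbered libraries correlated at -0.038 to 0.074, so the numbers do not pair the samples.

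The depth limits *pud-3* and *pud-4* in *tcer-1(tm1452)* and wildtype, where each had a few reads per library, and no depth can separate copies of identical sequence.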
